A study of Mus musculus with 4 samples.

Results

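The rows named Satellite, Simple_repeat and Low_complexity are 3 of the 47 repeat families in a table of nanoCAGE read counts from mouse oocytes and preimplantation embryos. They were taken by name, across all 11 runs of the table. All material came from F1 (C57BL/6J X CBA/H) crosses. The 4 stages were the fully grown oocyte, the 2-cell embryo at 48 h, the 8-cell embryo at 68 h and the blastocyst at 92 h, none with any other treatment named. NanoCAGE reads the 5′ ends of capped RNA from small inputs. Each stage is 1 sample, read in runs 1.1, 1.2 and 2 (oocyte, 8-cell embryo, blastocyst) or runs 1 and 2 (2-cell embryo). There were therefore no replicates and no test between stages, and ranges are those of runs. Nothing in the labels tells if runs are separate cell pools, how many cells were used, or from when hours were counted. The files name no genes, so stage markers were not checked.

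These 3 rows are not transposons. Satellites are long tandem arrays. In the mouse, major satellite fills the pericentromeric heterochromatin and minor satellite lies at the centromere itself, and major satellite is known to be transcribed around the first cleavages, when the parental genomes build new heterochromatin. Simple repeats are short motifs in tandem, such as microsatellites, scattered over genes and intergenic DNA. Low-complexity sequence is a class of stretches of biased base composition, such as A/T-rich, G/C-rich or polypurine tracts, with no common ancestor element. The table has 1 row for each class, so that major and minor satellite, or single motifs, were not separated, and no sequence of a member is printed.

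Run totals ran from 36922 to 1919263 counts. A member's share is its count as percent of the run's total over all 47 rows. Its transposon ratio is its count as percent of the summed 34 rows of LINE, SINE, LTR and DNA transposons. Stage values are unweighted means over runs. A row is said to rise or fall when stage means of shares differed at least 2-fold and no run of one stage reached a run of the other. Brackets after a run's share are exact (Clopper-Pearson) 95% intervals, which cover counting error only. Summed, the 3 rows made up 13.3% to 16.0% of an oocyte run, 2.56% and 3.82% of the 2-cell runs, 2.74% to 11.3% of an 8-cell run and 2.55% to 10.1% of a blastocyst run. In bulk RNA, a change in a share cannot be told apart from a change in the other rows of the same total, and fewer cells with a transcript cannot be told apart from less RNA per cell.

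**Figure D1:**
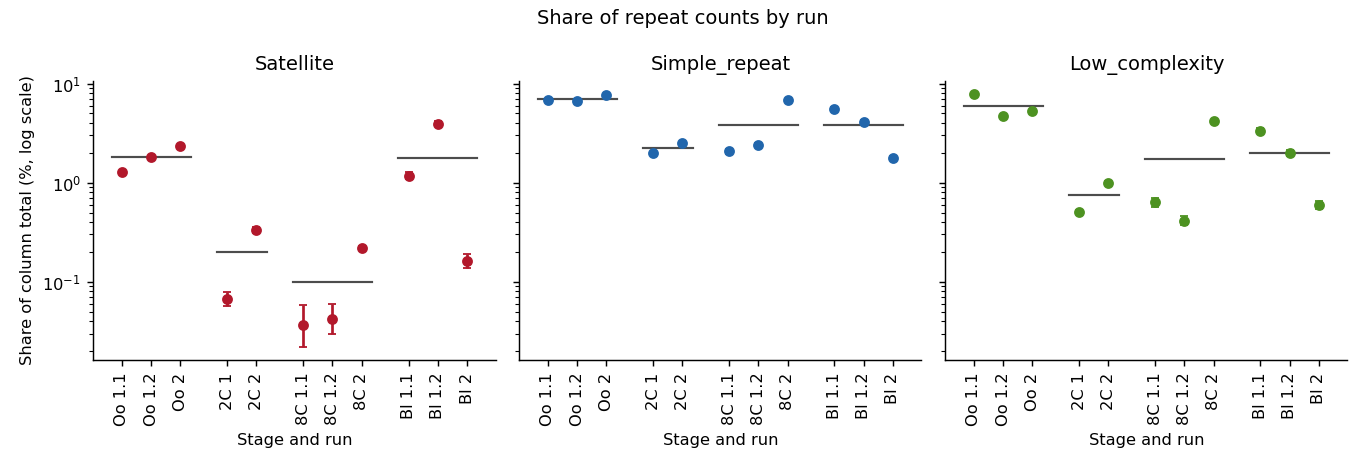
Share of the run total (percent, log axis) for each row, with 1 point per run (Oo oocyte, 2C 2-cell, 8C 8-cell, Bl blastocyst). Bars on points are exact 95% intervals and horizontal lines are stage means. All 3 oocyte runs lie above both 2-cell runs in every panel, and Satellite spans 0.164% to 3.96% within the blastocyst.

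Satellite was high in the oocyte, low in cleavage-stage embryos and uneven in the blastocyst. The row is that of the whole satellite class, and where in the genome its counts lie was not tested. Its share was 1.28% [1.25 to 1.31], 1.81% [1.79 to 1.83] and 2.33% [2.28 to 2.38] in oocyte runs 1.1, 1.2 and 2. It was 0.0676% [0.0575 to 0.0791] and 0.332% [0.310 to 0.356] in 2-cell runs 1 and 2. The 8-cell runs 1.1, 1.2 and 2 had 0.0370% [0.0219 to 0.0584], 0.0425% [0.0294 to 0.0593] and 0.219% [0.211 to 0.227]. All oocyte runs were thus above all 2-cell and 8-cell runs, and 8-cell runs 1.1 and 1.2 rested on 18 and 34 counts. The blastocyst runs 1.1, 1.2 and 2 had 1.18% [1.08 to 1.29], 3.96% [3.76 to 4.16] and 0.164% [0.139 to 0.192]. Run 2 of the blastocyst lay below 2-cell run 2 and 8-cell run 2, whereas run 1.2 exceeded every oocyte run. By counts, Satellite ranked 10, 11 and 10 of 47 rows in oocyte runs 1.1, 1.2 and 2, and 23 and 18 for the 2-cell stage. Its ranks were 23, 25 and 20 for the 8-cell stage and 15, 9 and 20 for the blastocyst.

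Simple_repeat, the row of microsatellite-like tandem motifs, had the highest share of the 3 in 10 of 11 runs. The oocyte runs 1.1, 1.2 and 2 had 6.86%, 6.72% and 7.61%. In shares this is the narrowest spread of any of the 34 families with at least 100 oocyte counts (1.13-fold from lowest to highest run). Relative to the transposon sum the oocyte runs of this row spread 1.91-fold. The 2-cell runs had 1.99% and 2.49%, and 8-cell runs 1.1 and 1.2 had 2.07% and 2.42%. The share in 8-cell run 2 was 6.87%, inside the range of the oocyte runs. Blastocyst runs 1.1, 1.2 and 2 had 5.55%, 4.10% and 1.79%. All blastocyst runs were below all oocyte runs, and blastocyst run 2 was below both 2-cell runs.

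Low_complexity, the row of tracts with biased base composition, followed the order of Simple_repeat over stages with wider steps. Its share was 7.84%, 4.74% and 5.36% in oocyte runs 1.1, 1.2 and 2, and in run 1.1 it exceeded Simple_repeat. The 2-cell runs had 0.507% and 1.003%. The 8-cell runs 1.1, 1.2 and 2 had 0.633%, 0.413% and 4.18%, so that run 2 stood 6.60-fold and 10.1-fold above the other two. The blastocyst runs had 3.35%, 1.99% and 0.595% in the same order. Every oocyte run was above every run of the other stages, by the least margin against 8-cell run 2.

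From oocyte to 2-cell embryo, across fertilisation and the onset of transcription from the embryo's own genome, all 3 rows fell. Satellite fell from 1.81% (1.28% to 2.33%) to 0.200% (0.0676% and 0.332%), a ratio of 0.111. Low_complexity fell from 5.98% (4.74% to 7.84%) to 0.755% (0.507% and 1.003%), a ratio of 0.126. Simple_repeat fell from 7.06% (6.72% to 7.61%) to 2.24% (1.99% and 2.49%), a ratio of 0.317. Of all 47 families, 8.51% fell by this rule and 31.9% rose, and the 3 rows were 3 of the 4 families that fell, the other being small cytoplasmic RNA (scRNA). That count rests on oocyte run 1.1: without it 10 of the 47 families fell (21.3%), the 3 rows among them. Of the 38 families that reached 100 counts in the pair of stages, Satellite, Low_complexity and Simple_repeat ranked 2, 3 and 4 from the lowest ratio. The median log2 ratio was -2.99 over the 3 rows and 0.52 over the 38 families. All 3 also fell when any 1 of the 5 runs was left out. The size of the Satellite fall rests on the 2-cell run used: it was 26.7-fold without run 2 and 5.44-fold without run 1. Relative to transposons, Satellite went from 3.04% to 0.239% of their sum (12.7-fold), Low_complexity from 11.6% to 0.886% (13.0-fold) and Simple_repeat from 12.7% to 2.60% (4.87-fold). For Low_complexity, oocyte run 1.1 had 20.7% of the transposon sum, against 6.67% and 7.36% in runs 1.2 and 2. Without oocyte run 1.1, a setting chosen after seeing the data, its fall on this scale was 7.91-fold, that of Satellite 12.02-fold and that of Simple_repeat 3.83-fold. On this scale the median log2 ratio of the 38 families moved to -0.02, and 9 of the 47 families rose and 5 fell, against 15 and 4 by share. The oocyte and the 2-cell embryo had no sequencing run recognised as shared. An effect of the sequencing run therefore cannot be told apart from one of stage here.

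**Figure D2:**
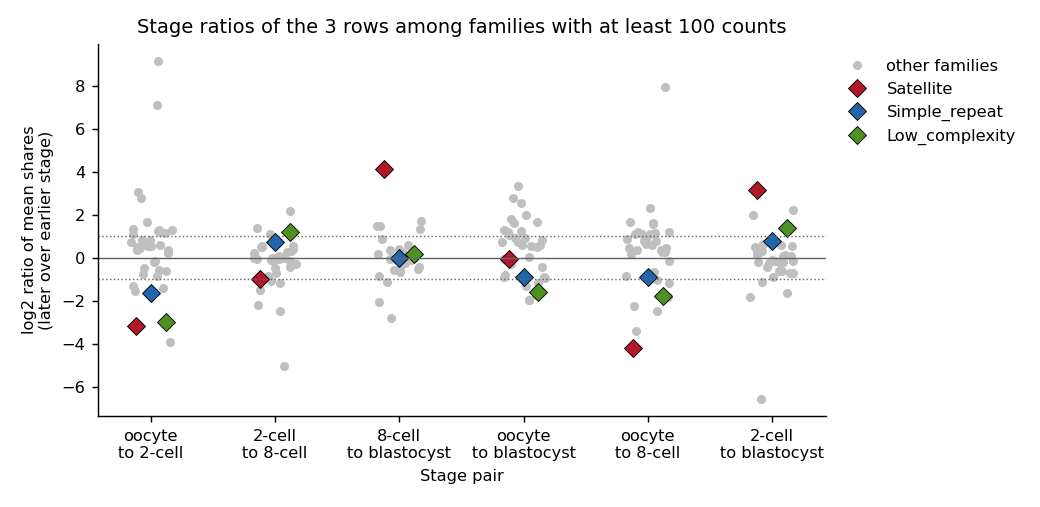
Log2 ratio of mean shares, later over earlier stage, for 6 stage pairs. Diamonds are the 3 rows and grey points the other families that reached 100 counts in the pair, and dotted lines mark 2-fold. All 3 diamonds lie below the lower line from oocyte to 2-cell, and Satellite is the highest point from 8-cell to blastocyst at 4.15, with overlapping runs.

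The oocyte and the 8-cell embryo can be compared within 1 sequencing run, which held oocyte run 1.2 and 8-cell run 1.2. There Satellite was 1.81% and 0.0425%, a 42.7-fold lower share in the 8-cell run. Low_complexity was 4.74% and 0.413% (11.5-fold lower) and Simple_repeat 6.72% and 2.42% (2.78-fold lower). Over all runs, Satellite fell 18.2-fold, from 1.81% to 0.0994%, and Low_complexity 3.44-fold, from 5.98% to 1.74%. Simple_repeat had 7.06% and 3.79% with overlapping runs, and without 8-cell run 2 it fell 3.15-fold, 1 of 6 families that fell (12.8%). Without that run the falls of Satellite and Low_complexity were 45.5-fold and 11.4-fold, and with counts pooled over runs Satellite fell 8.79-fold. Low_complexity did not pass the rule with pooled counts, at 5.43% and 3.83% (1.42-fold lower). The 2 rows that fell stand beside 6.38% of all families that fell and 17.0% that rose. Without oocyte run 1.1, 8 of the 47 families fell in place of 3. Satellite had the lowest ratio of the 36 families ranked. Set against transposons, Low_complexity was 4.33-fold lower at the 8-cell stage (11.6% and 2.67% of their sum) but did not pass the rule because runs overlapped, the lowest oocyte run having 6.67% and 8-cell run 2 6.89%.

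From the 2-cell to the 8-cell stage none of the 3 rows changed by the rule. In all, 2.13% of families rose and 8.51% fell, or 4 of 47, and the number that fell was 12 without 2-cell run 2 and 8 without 8-cell run 1.2. Satellite had 0.200% and 0.0994%, Simple_repeat 2.24% and 3.79%, and Low_complexity 0.755% and 1.74%, all with overlapping runs. The 2 stages share a sequencing run that held run 2 of each. Within it Low_complexity was 1.003% at the 2-cell and 4.18% at the 8-cell stage, a ratio of 4.17, and Simple_repeat 2.49% and 6.87%, a ratio of 2.76. Satellite was 0.332% and 0.219% in the same runs, a ratio of 0.658. Without 8-cell run 2 the direction of Low_complexity turned, with a ratio of 0.693. The ratio of Simple_repeat there was 1.003, against 1.69 with all runs. Satellite fell 5.04-fold in that setting, 1 of 5 families that fell (10.6%). Satellite also fell without 2-cell run 1 (3.34-fold, 1 of 5 families that fell), and its direction turned without 2-cell run 2, with a ratio of 1.47.

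8-cell run 2 stood apart from 8-cell runs 1.1 and 1.2 in all 3 rows, by 5.92-fold and 5.15-fold for Satellite and 3.32-fold and 2.84-fold for Simple_repeat. The same run had 26.5% ribosomal RNA (rRNA), against 0.807% and 3.81% in runs 1.1 and 1.2. Its transposon rows took 60.6% of counts, against 95.1% and 91.2%. The part of rRNA or of the run in these differences was not tested. Relative to transposons alone, Simple_repeat was 11.3% in 8-cell run 2, against 2.18% and 2.65%, and Low_complexity 6.89% against 0.665% and 0.453%. In run 2 both lay inside the range of the oocyte runs, where Simple_repeat was 9.44% to 18.1% of the transposon sum and Low_complexity 6.67% to 20.7%. Satellite in 8-cell run 2, at 0.361% of the transposon sum, remained below all oocyte runs (2.55% to 3.38%).

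**Figure D3:**
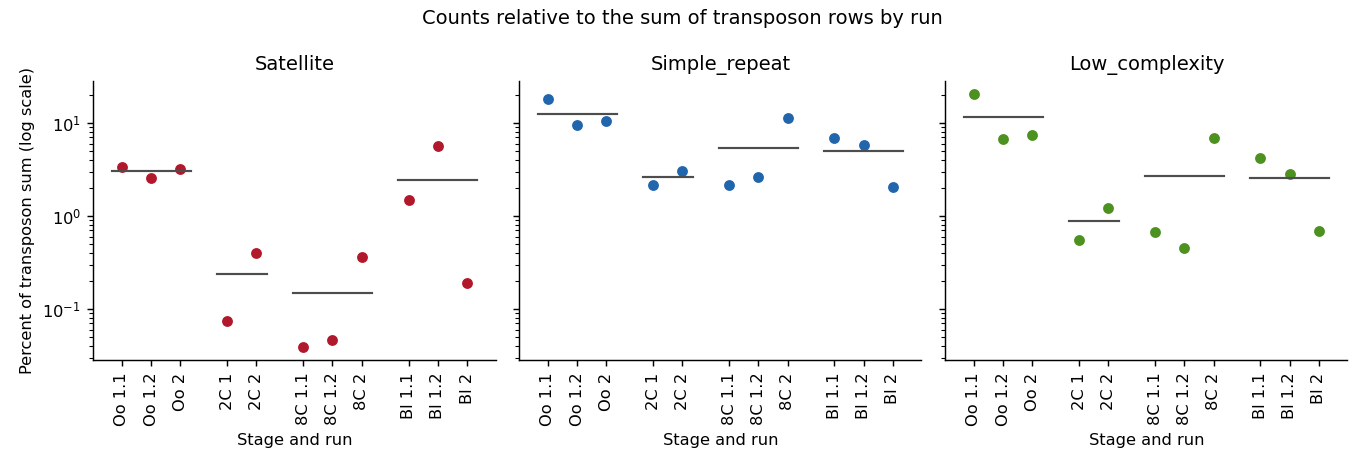
Counts of each row as percent of the summed transposon rows (log axis), 1 point per run, with stage means as horizontal lines. 8-cell run 2 reaches 11.3% for Simple_repeat and 6.89% for Low_complexity, at the level of oocyte runs 1.2 and 2, whereas its Satellite value of 0.361% stays near that of 2-cell run 2.

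From the 8-cell embryo to the blastocyst none of the 3 rows changed by the rule, beside 8.51% of families that rose and 4.26% that fell. Satellite had 0.0994% and 1.77%, a ratio of 17.8, the highest of 30 families, but blastocyst run 2 (0.164%) lay below 8-cell run 2 (0.219%). It rose without 8-cell run 2 (44.5-fold, 1 of 6 families that rose) and without blastocyst run 2 (25.8-fold, 1 of 7). The number of families that rose was 4 with all runs and 9 without 8-cell run 1.2 or without blastocyst run 1.2. Its ratio was 6.76 without blastocyst run 1.2 and 6.04 with pooled counts, and it did not pass the rule in either. Simple_repeat had 3.79% and 3.81%, and Low_complexity 1.74% and 1.98%. The direction of these last differences turned under several settings: with size factors their ratios were 0.627 and 0.613, and with pooled counts 0.495 and 0.406. The pooled 8-cell value is mostly that of run 2, which holds 1252133 counts against 48685 and 80059. No sequencing run recognised as shared held both the 8-cell embryo and the blastocyst. Read names of 8-cell run 1.1 and blastocyst runs 1.1 and 2 were not compared with each other.

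From the 2-cell embryo to the blastocyst Satellite had 0.200% and 1.77% (ratio 8.83), Low_complexity 0.755% and 1.98% (2.62) and Simple_repeat 2.24% and 3.81% (1.70). Runs overlapped for all 3, so none changed by the rule, beside 10.6% of families that rose and 2.13% that fell. Without blastocyst run 2 all 3 rose, Satellite 12.8-fold, Low_complexity 3.54-fold and Simple_repeat 2.16-fold, and 9 of the 47 families rose there (19.1%). Without 2-cell run 2, Satellite rose 26.1-fold and Low_complexity 3.91-fold, among 10 families that rose (21.3%). Without blastocyst run 1.2 the Satellite ratio was 3.36, and without 2-cell run 1 it was 5.32, and neither passed the rule. No sequencing run recognised as shared held both these stages either, but read names of 2-cell run 1 and blastocyst runs 1.1 and 2 were not compared.

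Between the first and the last stage, oocyte and blastocyst, Low_complexity fell from 5.98% (4.74% to 7.84%) to 1.98% (0.595% to 3.35%), a ratio of 0.331. It was the only 1 of the 3 rows to fall, beside 6.38% of all families, while 27.7% rose, and without oocyte run 1.1 it was 1 of 8 families that fell (17.0%). Its fall was 4.63-fold without blastocyst run 1.1 and 5.69-fold with size factors, against 3.02-fold with all runs. Simple_repeat had 7.06% and 3.81%, with all blastocyst runs below all oocyte runs but a difference of 1.85-fold, under the limit. It fell 2.56-fold relative to transposons, from 12.7% to 4.95% of their sum, 1 of 5 families that fell on this scale. Without blastocyst run 1.1 it fell 2.40-fold in shares, 1 of 4 families that fell (8.51%). Satellite had 1.81% and 1.77%, a ratio of 0.977 with overlapping runs. Its blastocyst runs lay on both sides of the oocyte range, and without blastocyst run 1.2 it fell 2.69-fold, 1 of 5 families that fell (10.6%). In the sequencing run that held oocyte runs 1.1 and 2 and blastocyst run 1.2, Satellite went the other way, from 1.81% to 3.96% (ratio 2.19). Low_complexity was 6.60% and 1.99% there (ratio 0.301), and Simple_repeat 7.24% and 4.10% (0.567). Relative to the transposon sum the ratio of Satellite there was 1.71, under the 2-fold limit. Those of Low_complexity and Simple_repeat were 0.202 and 0.410.

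The mix of the 3 rows is a ratio within a run and does not depend on the run's total. Simple_repeat made up 42.9% to 50.6% of the 3 rows' counts for the oocyte, 65.1% and 77.6% for the 2-cell embryo, and 61.0% to 84.2% for the 8-cell embryo. In blastocyst runs 1.1, 1.2 and 2 it made up 55.1%, 40.8% and 70.2%. Satellite was 8.02% to 15.2% of the mix for the oocyte and 2.64% and 8.69% for the 2-cell embryo. In the 8-cell runs it was 1.35%, 1.48% and 1.94% (runs 1.1, 1.2 and 2), a narrow range although run 2 stood apart in every share. The blastocyst runs had 11.7%, 39.4% and 6.44%. Low_complexity per Simple_repeat count was 1.14, 0.706 and 0.704 in oocyte runs 1.1, 1.2 and 2, above every other run, of which 8-cell run 2 was next with 0.608 and 8-cell run 1.2 lowest with 0.171.

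**Figure D4:**
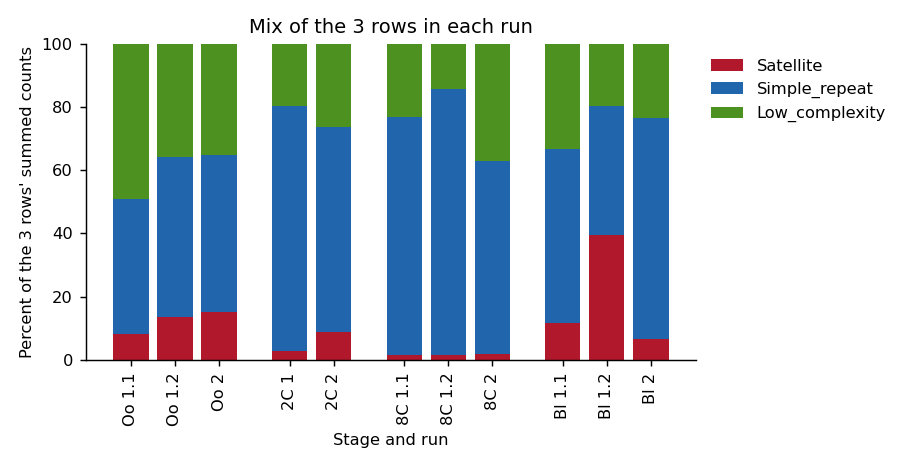
Percent of the 3 rows' summed counts that each row takes, stacked per run. Satellite takes 1.35% to 1.94% of the stack in the 8-cell runs and 39.4% in blastocyst run 1.2.

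Runs of 1 stage differed by more than counting error in nearly every case. Of 30 pairs of runs of the same stage and row, 1 had overlapping intervals, Satellite in 8-cell runs 1.1 and 1.2. Within the blastocyst the highest Satellite run was 24.1 times the lowest, the widest of 23 families with at least 100 blastocyst counts, whose median was 2.53. Low_complexity, at 5.64 times, ranked 3 and Simple_repeat, at 3.11 times, ranked 9. Within the oocyte the same ratios of shares were 1.82 for Satellite, 1.65 for Low_complexity and 1.13 for Simple_repeat, all below the median of 3.86 over 34 families. Relative to the transposon sum they were 1.33, 3.10 and 1.91 in the same order. At the 8-cell stage Low_complexity spread 10.1-fold, Satellite 5.92-fold and Simple_repeat 3.32-fold, above the median of 2.70 over 28 families.

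Across the 11 runs, log2 shares of Simple_repeat and Low_complexity had a Pearson correlation of 0.967, and each was the nearest of 36 families to the other. These are runs of 4 samples that share totals, so this is a description. Satellite was nearest to Low_complexity (0.801), then Simple_repeat (0.752) and scRNA (0.710). The third family by likeness was scRNA for Simple_repeat (0.705) and Low_complexity (0.738) too. Ribosomal RNA came next for all 3, at 0.687, 0.642 and 0.703 for Satellite, Simple_repeat and Low_complexity. Relative to the transposon sum the correlation of Simple_repeat and Low_complexity was 0.984.

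Positions of reads gave a view that does not use the table. Mouse chromosomes have the centromere at one end, and in the assembly sequence starts after a gap that stands for it. The first 100 kb beyond position 3000000 (mm9) of chromosomes 1 to 19 and X were taken as the window next to this gap. It took 0.118%, 0.104% and 0.0458% of read lines in oocyte runs 1.1, 1.2 and 2, and 0.0110% and 0.133% in 2-cell runs 1 and 2. The 8-cell runs 1.1, 1.2 and 2 had 0.0311%, 0.0170% and 0.283%. The blastocyst runs 1.1, 1.2 and 2 had 0.440% [0.378 to 0.509], 1.92% [1.78 to 2.07] and 0.0136% [0.00723 to 0.0232]. Within the 2-cell embryo and the blastocyst the runs had the order of the Satellite row, and at the 8-cell stage run 2 was highest in both. 8-cell runs 1.1 and 1.2 stood in opposite order in the 2 measures, with overlapping intervals in each. By run name, the oocyte runs had the reverse order. The window share was lowest in run 2 (0.0458%), where Satellite was highest (2.33%). It was highest in run 1.1 (0.118%), where Satellite was lowest (1.28%). This order holds only if run names mean the same library in counts and read lines, which was not tested. With the names of oocyte runs 1.1 and 2 exchanged, the window shares would have the order of the Satellite row. The oocyte runs had less in the window than blastocyst runs 1.1 and 1.2, although their Satellite shares of 1.28% to 2.33% lay between those of these runs (1.18% and 3.96%).

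**Figure D5:**
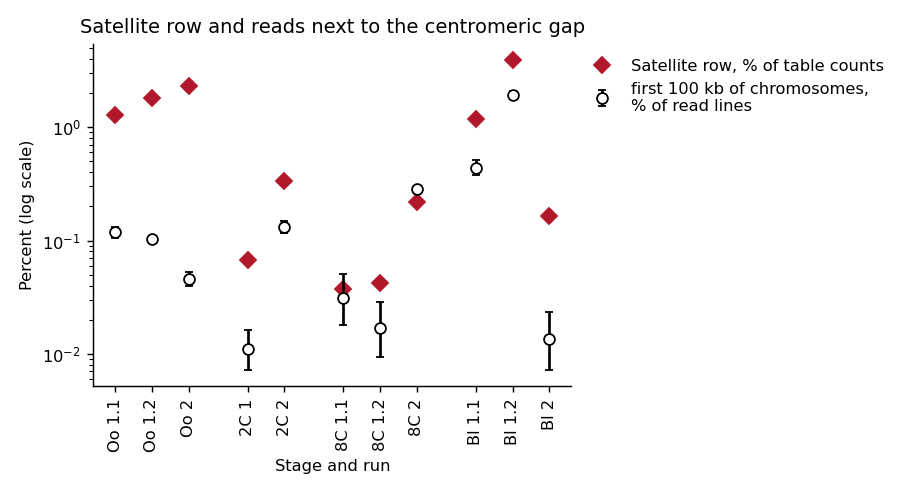
Share of the Satellite row in table counts (diamonds) and share of read lines in the first 100 kb of chromosomes 1 to 19 and X (circles, with exact 95% intervals), per run, on a log axis. Blastocyst run 1.2 is highest in both, at 3.96% and 1.92%, while oocyte circles lie at 0.0458% to 0.118%.

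Most lines of the window came from few start positions. Chromosome 11 held 72.5% of its lines over all runs and chromosome X 21.4%. On the minus strand of chromosome 11, starts at 3056650 to 3056660 (mm9) took 0.352% and 1.85% of lines in blastocyst runs 1.1 and 1.2 (144 and 619 lines). There was no such line in blastocyst run 2 or in any run of the other stages, which allows up to 0.00313% in blastocyst run 2. In 8-cell run 2, starts at 3050548 to 3050558 on the plus strand took 0.274% of lines (3169 lines), against none in 8-cell runs 1.1 and 1.2. The same starts had 9, 45 and 1 lines in oocyte runs 1.1, 1.2 and 2, 1 line in 2-cell run 2 and 1 in blastocyst run 2, and none in the other 2-cell and blastocyst runs. On the minus strand of chromosome X, starts at 3026437 to 3026447 took 0.0882% and 0.0777% of lines in oocyte runs 1.1 and 1.2, and none in oocyte run 2 or any run of another stage. On the plus strand of chromosome 11, starts at 3074285 to 3074295 took 0.0406% of lines in 2-cell run 2 (86 lines), and none in any other run. These places, 1 for each stage, were chosen as the most used start of a stage on that chromosome, with starts up to 5 bp away, after the lines were seen. Without chromosome 11 the stage means of the window were 0.0662%, 0.0197%, 0.0181% and 0.0269% from oocyte to blastocyst, against 0.0894%, 0.0718%, 0.110% and 0.791% with it. No repeat or gene annotation of mm9 was used here, so whether these lines were counted in the Satellite row was not tested.

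A pair of places known as satellite-rich in the mouse assembly held few lines. The first 100 kb of chromosome 9 had 19, 53 and 14 lines in oocyte runs 1.1, 1.2 and 2, and 1 and 32 lines in 2-cell runs 1 and 2. Its 8-cell lines were 0, 0 and 32, and its blastocyst lines 7, 3 and 5, in the same order of runs. Chromosome 2 at 98500001 to 98510000 (mm9) had 23, 116 and 13 oocyte lines and 0 and 19 lines at the 2-cell stage. It had 0, 0 and 144 lines at the 8-cell stage and 0, 20 and 0 in the blastocyst. A count of 0 allows up to 0.00733% in blastocyst run 1.1 and 0.00583% in 8-cell run 1.1. As shares these were at most 0.0171% on chromosome 9 (blastocyst run 1.1) and 0.0597% on chromosome 2 (blastocyst run 1.2). The Satellite row of the table had 18 to 34779 counts per run, in every run more than the lines of both places together.

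Runs of the table and of the read files were set side by side by stage, and by run name only as the names stand. Read lines per table count were 0.483, 0.717 and 1.26 in oocyte runs 1.1, 1.2 and 2, against 0.863 to 1.06 in the other runs. The rRNA row took 44.9% of counts in the table's oocyte run 1.1 and 10.3% in run 2. The densest 10 kb of the read files, on chromosome 17, took 9.98% of lines in the file of oocyte run 1.1 and 17.0% in that of run 2, the opposite order. Whether these run names mean the same library in table and files was not tested. Oocyte stage means, and the sequencing run that held both, are the same either way. The order of the oocyte window shares against the Satellite row is not, and would turn with exchanged names.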

How the data were processed

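NanoCAGE reads from 4 stages were used as deposited. The count table holds raw read counts per repeat family and run, deposited by the authors. Its columns are runs, per the file headers. Each line of a read file places 1 read of 25 bases, with a score deposited by the authors on an unstated scale and used only in an alternative. Per the submitters' processing notes the build was mm9 and CASAVA was used. For the aligner, the repeat annotation and multiply placed reads, nothing is given in the sources used here.

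The rule for a rise or fall, shares, transposon ratios and exact 95% binomial intervals were computed with Python 3.11.15, numpy 2.4.6, scipy 1.17.1 and pandas 2.3.3. The ratio and rule were tested on simulated counts with counting error only, for transposon ratios from oocyte to 2-cell embryo. How the rule behaves under the spread between runs seen here was not tested. The 34 transposon rows were classed by family name from general knowledge. Run totals of 36922 to 1919263 counts put 3 counts at between 0.000156% and 0.00813%. Reads were amplified and carry no molecular identifiers, so intervals cover counting error only. Sequencing runs were read from read names, and runs outside those recognised as shared were not compared with each other. A read's start is its 5′ base by placement strand. Named families are the 3 rows, the rRNA row and transposon sum, and the 3 families most like each row by Pearson correlation of log2 shares, among families counted in every run. scRNA as the fourth family that fell, and the start positions in the window, were named after their values were seen. Members, rule and alternatives (other denominators, size factors, pooled counts, geometric means, left-out runs, 1.5-fold and 3-fold limits, window sizes) were chosen with earlier results of these data known.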

Additional observations from a re-analysis of the deposited data

How the results depend on the processing

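Of 237 alternatives to the 18 ratios (3 rows, 6 stage pairs, later over earlier stage), 191 kept the direction and the side of the rule. Among the 237, 3 were chosen after seeing the data (oocyte to 2-cell, relative to transposons and without oocyte run 1.1). Alternatives with a 1.5-fold or 3-fold limit leave the ratio as it was, so they could not change a direction. Size could change in those kept, as for Satellite from 2-cell to 8-cell (0.497, and 0.992 with pooled counts). Leaving out 1 run at a time gave 0.199 to 1.47 for Satellite from 2-cell to 8-cell, 6.76 to 44.5 from 8-cell to blastocyst, 0.372 to 1.42 from oocyte to blastocyst and 3.36 to 26.1 from 2-cell to blastocyst. For Simple_repeat it gave 0.778 to 1.70 from 8-cell to blastocyst, 0.417 to 0.684 from oocyte to blastocyst, 0.318 to 0.658 from oocyte to 8-cell and 1.32 to 2.16 from 2-cell to blastocyst, and 1.003 to 2.08 from 2-cell to 8-cell. For Low_complexity it gave 0.693 to 3.44 from 2-cell to 8-cell, 0.742 to 3.78 from 8-cell to blastocyst and 1.71 to 3.91 from 2-cell to blastocyst. The cause of these changes was not tested beyond the run left out.

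From 8-cell to blastocyst the direction turned relative to transposons (Simple_repeat 0.918, Low_complexity 0.962), without RNA gene rows (0.930 and 0.991), with size factors (0.627 and 0.613) and with pooled counts (0.495 and 0.406). From oocyte to blastocyst Simple_repeat fell relative to transposons (0.391), without RNA gene rows (0.452), with size factors (0.319), pooled counts (0.465), geometric means (0.488) and a 1.5-fold limit (0.540). From oocyte to 8-cell Low_complexity no longer fell relative to transposons (0.231), without RNA gene rows (0.263), with size factors (0.286) or with pooled counts (0.705). Within a shared sequencing run Satellite turned from oocyte to blastocyst (2.19), where 38.3% of the 47 families rose. Simple_repeat (2.76) and Low_complexity (4.17) rose from 2-cell to 8-cell, beside 17.0% of families that rose. Simple_repeat fell from oocyte to 8-cell (0.360), beside 23.4% of families that fell. Each had a single run in 1 or both stages. With a single run in both, runs cannot overlap, so the rule is the 2-fold limit alone. The cause of these changes within a sequencing run was not tested. The window share depended on the window's length: with the first 20 kb the stage means were 0.0207%, 0.00903%, 0.0142% and 0.00483%, and with the first 1000 kb 1.32%, 2.56%, 1.84% and 2.12%, from oocyte to blastocyst. No paired analysis was possible because each stage is 1 sample. Depth limits Satellite in 8-cell runs 1.1 and 1.2, at 18 and 34 counts.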
